A study of Sus scrofa with 30 samples.

Results

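The comparison is between the endometrium of cyclic gilts on day 20 of the estrous cycle (CD20) and on day 16 (CD16). All libraries with these labels were taken, 5 for CD20 and 5 for CD16, out of 30 libraries in the series. The animals were Hampshire x Duroc gilts, 7 to 8 months old, from 1 herd, with 1 small RNA library per animal. The protocol text that describes insemination is the same for every sample, cyclic ones included, so it does not set these groups apart. 4 libraries of day 12 (CD12) entered the fit to share its estimate of the spread, and 5 libraries of day 16 and 6 of day 20 of pregnancy (PD16 and PD20) were used for 1 comparison at the end. Endometrium was sampled whole, so fewer cells of a type and less RNA per cell cannot be told apart.

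A microRNA (miRNA) is a short RNA that guides silencing proteins to messenger RNAs, and bases 2 to 8 of the miRNA, the seed, do most to decide which. Forms of a miRNA that begin or end at another base than the reference are called isomiRs, and a changed 5' end gives another seed. In a cycle without embryos the corpora lutea regress and progesterone falls, after which follicles grow and the uterus comes under estrogen again before the next estrus. The question was which miRNAs of the endometrium differed between these stages. Reads were counted on 873 annotated sequences by exact match, on the sum of all sequences of a miRNA arm (241 miRNA sums) and on the sum of all sequences with the same seed (258 seed sums). Normalized reads (CPM) are counts scaled to one library size, that of the annotated reads, and each kind of sum was scaled on its own.

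The sequences below are those on which the results turn, written 5' to 3' with the seed in capitals. The first 3 share their seed and differ in bases outside it. MiR-212 is shown because its separation between the days was complete, and miR-146a-5p and miR-155 because they act in innate immune signalling. MiR-16 stands for a seed sum without overlap between the days and miR-375 for the sums that fell. The last pair shows how loss of 1 base at the 5' end of miR-140-3p moves the seed.
miR-17-5p: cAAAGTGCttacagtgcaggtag
miR-20a form of 23 nt: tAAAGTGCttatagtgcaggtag
miR-106b-5p form of 22 nt: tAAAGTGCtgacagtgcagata
miR-212 form of 21 nt: tAACAGTCtccagtcacggcc
miR-146a-5p: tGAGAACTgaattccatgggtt
miR-155 form of 23 nt: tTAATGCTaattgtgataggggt
miR-16: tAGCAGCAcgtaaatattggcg
miR-375 form of 22 nt: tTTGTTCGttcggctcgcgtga
miR-140-3p: tACCACAGggtagaaccacggac
miR-140-3p 5' DEL 1 nt: aCCACAGGgtagaaccacggac

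Total reads of the 2 days overlapped. CD16 libraries held 4526495, 3495115, 3081171, 2503003 and 3059210 reads and CD20 libraries 2640551, 3112489, 2418754, 2092518 and 2751402, in the order of replicates 1 to 5. The annotated sequences took 75.8 to 87.2% of the reads of a CD16 library and 77.8 to 81.3% of a CD20 library. Of the 873 sequences, 835 had reads in all 10 libraries. No read carried a molecular identifier, so spread between libraries and not the number of reads measures the error.

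The CD20 libraries were not alike. On the first principal component of 558 sequences, which held 44.6% of the variance, CD20 replicate 1 scored 27.3 and CD20 replicate 2 scored 18.1. CD20 replicates 3, 4 and 5 scored 3.06, -6.31 and -5.00, within the -17 to 2.73 of the CD16 libraries or just above it. CD20 replicate 1 was the highest of the 10 libraries in 196 sequences and the lowest in 172. Its rank correlation with CD20 replicate 2 across these sequences was 0.95, and CD20 replicate 3 was closest to CD16 replicate 4 (0.95). The median correlation was 0.848 within CD20 and 0.850 between the days, as a description over sequences, which are not independent replicates. The log2FC of the called sequences, miRNA sums and seed sums is therefore also given without CD20 replicates 1 and 2. CD16 replicate 3 stood apart on the second component (score -15.1) and had the highest share of annotated reads, 87.2%.

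**Figure D1:**
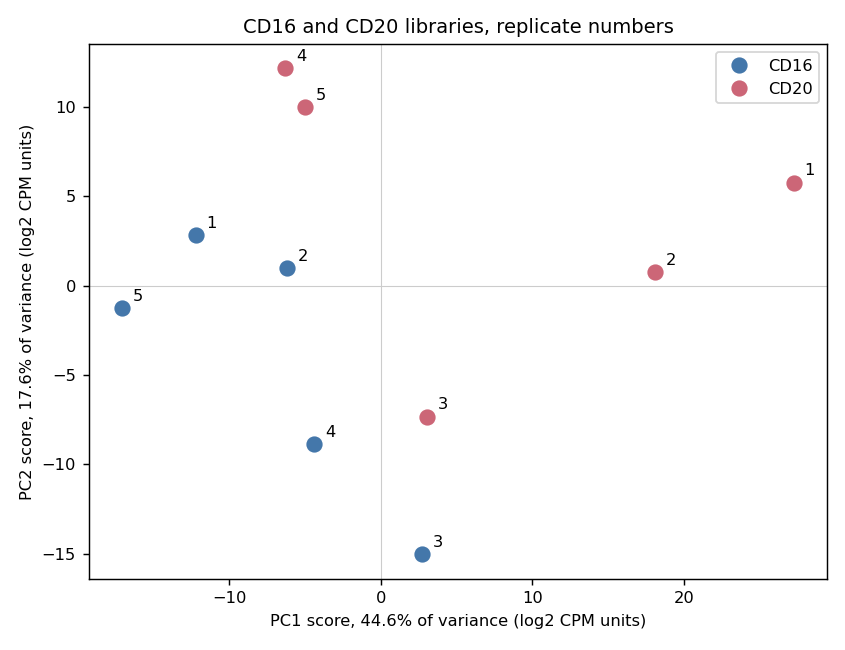
Scores of the 5 CD16 and 5 CD20 libraries on the first and second principal components of centred log2 CPM, 1 point per library with its replicate number. CD20 replicates 1 and 2 lie to the right at 27.3 and 18.1, and the other 3 CD20 libraries lie among or close to the CD16 libraries on this axis.

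4 sequences of 873 passed both limits of a call (a log2 fold change of CD20 over CD16, log2FC, beyond 1 or -1, at an adjusted p under 0.05), all higher on CD20, which is 0.458% of those tested. At an unadjusted p under 0.05, 110 were higher (12.6%) and 75 lower (8.59%), and the median log2FC of all sequences was -0.03. In 41 sequences (4.7%) the libraries of the 2 days did not overlap, 25 higher (2.86%) and 16 lower (1.83%) on CD20. Without CD20 replicates 1 and 2, 0 sequences were called by the quasi-likelihood test of edgeR, with 65 at an unadjusted p under 0.05. With all libraries, the likelihood ratio test of edgeR called 56, 39 higher and 17 lower, and DESeq2 called 72, 50 higher and 22 lower. Below, called and not called refer to the quasi-likelihood test unless another is named.

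**Figure D2:**
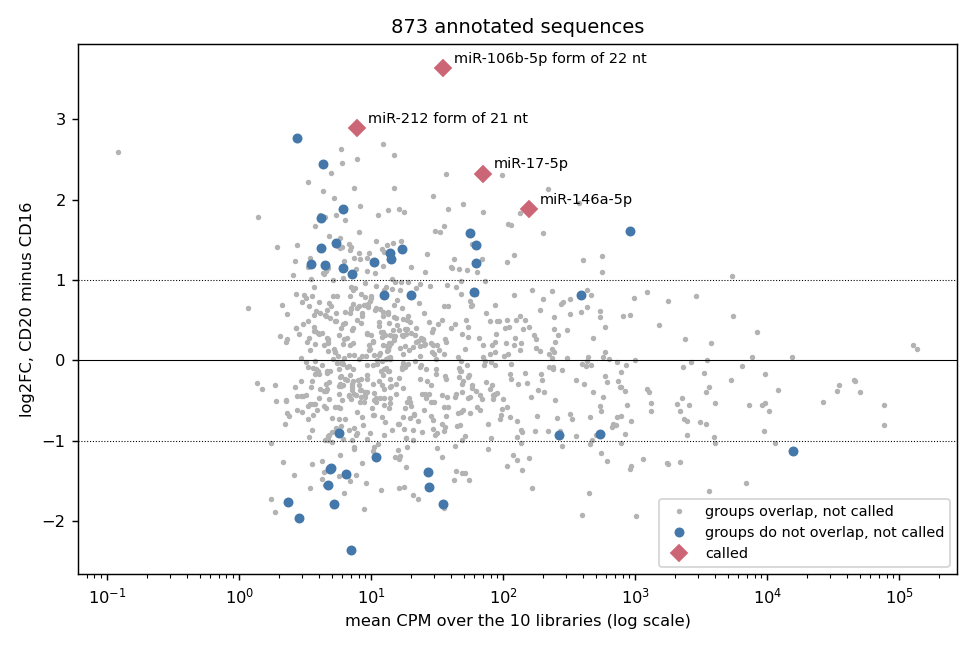
Log2FC (CD20 minus CD16) against mean CPM over the 10 libraries (log axis) for the 873 annotated sequences, with dotted lines at a log2FC of 1 and -1. The 4 called sequences lie above the upper line, and the 41 sequences without overlap between the days lie on both sides of 0.

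MiR-212, which is made from the same transcript as miR-132 and is induced through the factor CREB, separated the days at a low level. Its form of 21 nt had 3.65, 2.47, 0, 2.17 and 0.417 normalized reads in CD16 replicates 1 to 5 and 11.1, 17.4, 13.6, 9.59 and 17.5 in CD20 (log2FC 2.89, SE 0.59, adjusted p = 0.0251). Every CD20 library lay above every CD16 library, at 18 to 54 reads against 0 to 12, and this sequence was called in 5 of 10 fits that left out 1 of the 10 libraries. Both forms of miR-212 summed gave 3.07 ± 2.22 on CD16 and 20.7 ± 8.33 on CD20 (mean ± SD, n = 5 each), again without overlap (log2FC 2.69, SE 0.55, adjusted p = 0.00813). This sum was called in 10 of 10 such fits, with a largest adjusted p of 0.0488 by the quasi-likelihood test, close to the limit. With miR-132 in the same seed sum the CD20 libraries held 20.5, 44.8, 28.1, 25.8 and 29.2 and the CD16 libraries 14, 4.47, 1.68, 6.58 and 3.01 (log2FC 2.29, SE 0.50, adjusted p = 0.0147). MiR-132 on its own overlapped between the days and was not called (log2FC 1.84, SE 0.72, adjusted p = 0.119). In RefSeq (Sscrofa11.1) no other miRNA gene lies between MIR132 and MIR212. Without CD20 replicates 1 and 2 the log2FC was 2.87 for the 21 nt form (adjusted p = 0.165) and 2.51 for the miR-212 sum (adjusted p = 0.0825).

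MiR-146a-5p and miR-155, both induced by inflammatory signals in many cell types, were higher on CD20. MiR-146a-5p had 71.5, 65.9, 56, 108 and 33 normalized reads on CD16 and 301, 192, 333, 222 and 188 on CD20 (log2FC 1.88, SE 0.39, adjusted p = 0.0251). The lowest CD20 library was above the highest CD16 library, and the log2FC was as large without CD20 replicates 1 and 2, at 1.89 (adjusted p = 0.165). It was called in 5 of 10 fits with 1 of the 10 libraries left out, and the sum of all forms, with a log2FC of 1.65 and 1.65 without those replicates, in 10 of 10. The largest adjusted p of that sum in these fits was 0.0492 by the quasi-likelihood test. All 6 forms of miR-146a-5p had a log2FC above 0, from 0.34 to 2.44. The miR-155 sum had 4.36, 3.68, 7.77, 3.21 and 2.46 on CD16 and 30.4, 26.8, 8.15, 15.6 and 16.7 on CD20, without overlap (log2FC 2.19, SE 0.47, adjusted p = 0.01). It was called in 10 of 10 fits with 1 of the 10 libraries left out (largest adjusted p = 0.0492 by the quasi-likelihood test). Without CD20 replicates 1 and 2 its log2FC was 1.65 (adjusted p = 0.208). MiR-146b, a near relative with the seed of miR-146a-5p, was not called. Its sum had 115 ± 54.8 and 286 ± 85.3, without overlap (log2FC 1.31, SE 0.58, adjusted p = 0.17). The seed sum GAGAACT, which joins miR-146a-5p and miR-146b, had 157, 248, 178, 341 and 112 on CD16 and 781, 506, 691, 509 and 428 on CD20, without overlap and without a call by the quasi-likelihood test (log2FC 1.49, SE 0.46, adjusted p = 0.0548; adjusted p = 0.0202 by the likelihood ratio test, 0.0198 by DESeq2 and 0.0276 in the fit of all 30 libraries). The isomiR of miR-146b with 2 added 3' bases had 27.8 ± 16 and 83.5 ± 17.2, without overlap (log2FC 1.59, SE 0.51, adjusted p = 0.0969), and was called by the likelihood ratio test and by DESeq2.

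The third group was the miR-17 family, which is known to drive the cell cycle and is made from several clusters. MiR-17-5p had 22.5, 21.5, 23.4, 34.3 and 14.6 normalized reads on CD16 and 247, 159.9, 81.9, 41 and 52.4 on CD20 (log2FC 2.32, SE 0.47, adjusted p = 0.0251). All CD20 libraries were above all CD16 libraries, with CD20 replicates 1 and 2 highest. MiR-20a, from the same cluster (2 miRNA genes lie between MIR17 and MIR20A in RefSeq), had 445, 362, 490.3, 657 and 271 on CD16 and 2451, 1940.3, 1072, 694 and 643 on CD20 as a sum (log2FC 1.61, SE 0.42, adjusted p = 0.0327). In 4 CD20 libraries it was above all CD16 libraries. The 22 nt form of miR-106b-5p, from a related cluster, had 7.91, 4.93, 4.58, 3.48 and 4.59 on CD16 and 228, 53.3, 5.00, 21.3 and 14.3 on CD20 (log2FC 3.64, SE 0.77, adjusted p = 0.0258). Here the groups overlapped, and CD20 replicate 1 lay far above the next library. With 1 of the 10 libraries left out this form was called in 3 of 10 fits (log2FC 2.30 to 3.97). The miR-106b-5p sum was called in 9 of 10, miR-17-5p in 10 of 10 (largest adjusted p = 0.0488 by the quasi-likelihood test) and miR-20a in 5 of 10. MiR-17-5p is 1 sequence on both scales, and with p-values adjusted over 873 sequences it was called in 4 of 10 such fits. The 10 sequences with the shared seed AAAGTGC summed to 534 ± 171 on CD16 and 1695 ± 1140.2 on CD20 (log2FC 1.67, SE 0.43, adjusted p = 0.0363). The sum of miR-93-5p, which has this seed, overlapped between the days and was not called (log2FC 0.83, SE 0.32, adjusted p = 0.115). Without CD20 replicates 1 and 2 the log2FC was 1.33 for the miR-17-5p sequence and 1.43 for the 22 nt form of miR-106b-5p (adjusted p = 0.597 for both). Among the sums it was 1.29 for miR-17-5p (adjusted p = 0.208), 0.85 for miR-20a and 0.80 for miR-106b-5p. From the other arm of the miR-106b hairpin, the 20 nt form of miR-106b-3p had 46.8, 36, 42.3, 41.3 and 37.5 on CD16 and 1.91, 4.85, 21.4, 27.7 and 13 on CD20, all CD20 libraries lower, without a call (log2FC -1.58, SE 0.55, adjusted p = 0.111), though DESeq2 made one.

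Of the 241 miRNA sums, 11 were called (4.56%), 9 higher (3.73%) and 2 lower (0.83%) on CD20. The split of the calls depended on the setting. It was 19 higher and 1 lower with all deposited reads as library size and 18 higher and 10 lower by DESeq2. It was 7 higher and 3 lower with a minimum mean of 10 CPM, and 4 higher and 4 lower with runs of 12 library title numbers as blocks. With 1 library left out it was 15 higher and 15 lower without CD16 replicate 3 and 5 higher and 5 lower without CD16 replicate 1, while without CD20 replicate 1 or 2, or CD16 replicate 4 or 5, the 4 to 6 calls were all higher. At an unadjusted p under 0.05 there were 58 (24.1%), 36 higher (14.9%) and 22 lower (9.13%), and 9 (3.73%) did not overlap between the days, 6 higher (2.49%) and 3 lower (1.24%). Besides miR-212, miR-155, miR-146a-5p, miR-17-5p, miR-20a and miR-106b-5p, those higher were miR-16, miR-126-5p and miR-142-3p. MiR-16, which restrains the cell cycle, had 129, 129.6, 174, 154 and 76.2 on CD16 and 1356, 624, 164, 168 and 245 on CD20 (log2FC 1.95, SE 0.54, adjusted p = 0.0409). CD20 replicates 3 and 4 lay within the CD16 range, and the log2FC was 0.54 without CD20 replicates 1 and 2. MiR-126-5p comes from a gene of the vessel wall and had 18.2, 45.9, 62.2, 36.7 and 30.7 on CD16 and 298, 185, 56.2, 65.1 and 78 on CD20 (log2FC 1.82, SE 0.48, adjusted p = 0.0327). 4 CD20 libraries were above all CD16 libraries. MiR-142-3p, a miRNA of blood cells, had 1.80, 2.34, 4.66, 2.29 and 0.410 and 35.1, 13.4, 5.30, 7.53 and 3.52, from 1 to 9 reads on CD16 and 8 to 97 on CD20 (log2FC 2.52, SE 0.69, adjusted p = 0.0409). CD20 replicate 1 was again highest in all 3 of these sums, and each was called in 4 of 10 fits with 1 of the 10 libraries left out. Their log2FC without CD20 replicates 1 and 2 was 0.78 for miR-126-5p and 1.25 for miR-142-3p (adjusted p = 0.646 for both).

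The 2 sums that fell were miR-375 and miR-129b. MiR-375, known from endocrine and epithelial cells, had 2606, 1014, 150.3, 1499.9 and 2648 normalized reads on CD16 and 410.1, 203.4, 682, 533 and 304 on CD20 (log2FC -1.89, SE 0.53, adjusted p = 0.0424). The groups overlapped, since CD16 replicate 3, at 150.3, was the lowest of the 10 libraries, and all 4 forms had a negative log2FC (-1.94 to -1.43). MiR-129b had 29.8, 52.3, 21.2, 41.7 and 126 on CD16 and 4.71, 11.3, 10.2, 28 and 23.4 on CD20 (log2FC -1.81, SE 0.52, adjusted p = 0.0474), with 3 CD20 libraries below all CD16 libraries. They were called in 5 and 4 of 10 fits with 1 of the 10 libraries left out. Without CD20 replicates 1 and 2 the log2FC was -1.65 for miR-375 (adjusted p = 0.503) and -1.40 for miR-129b (adjusted p = 0.513).

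**Figure D3:**
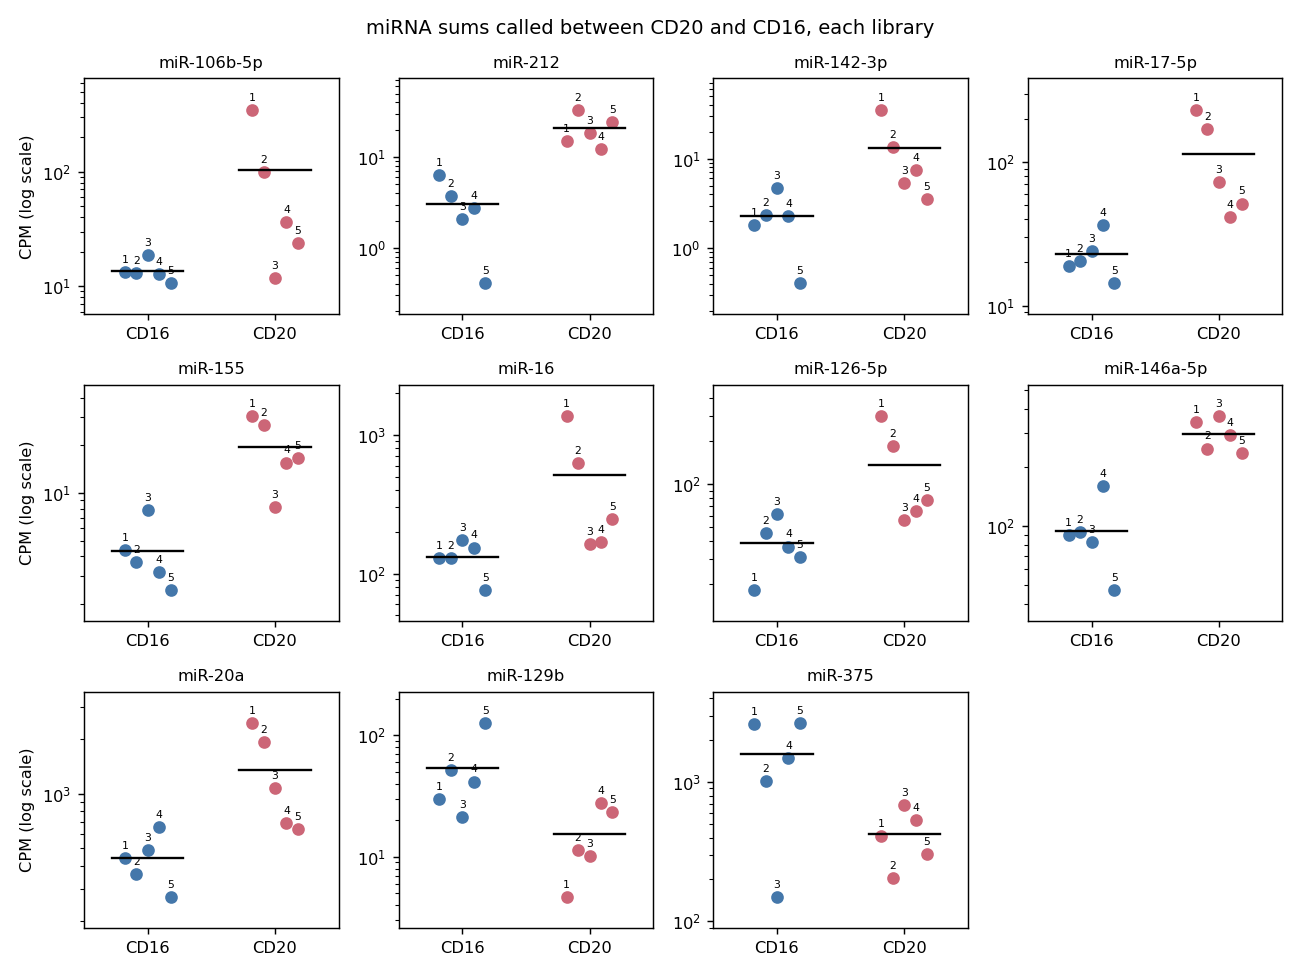
Normalized reads (CPM, log axis) of the 11 called miRNA sums in each CD16 and CD20 library, with replicate numbers on the points and group means as lines. The points of the 2 days are fully apart for miR-212, miR-17-5p, miR-155 and miR-146a-5p. CD20 replicate 1 is the highest point for miR-17-5p, miR-155, miR-20a, miR-106b-5p, miR-142-3p, miR-16 and miR-126-5p.

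**Figure D4:**
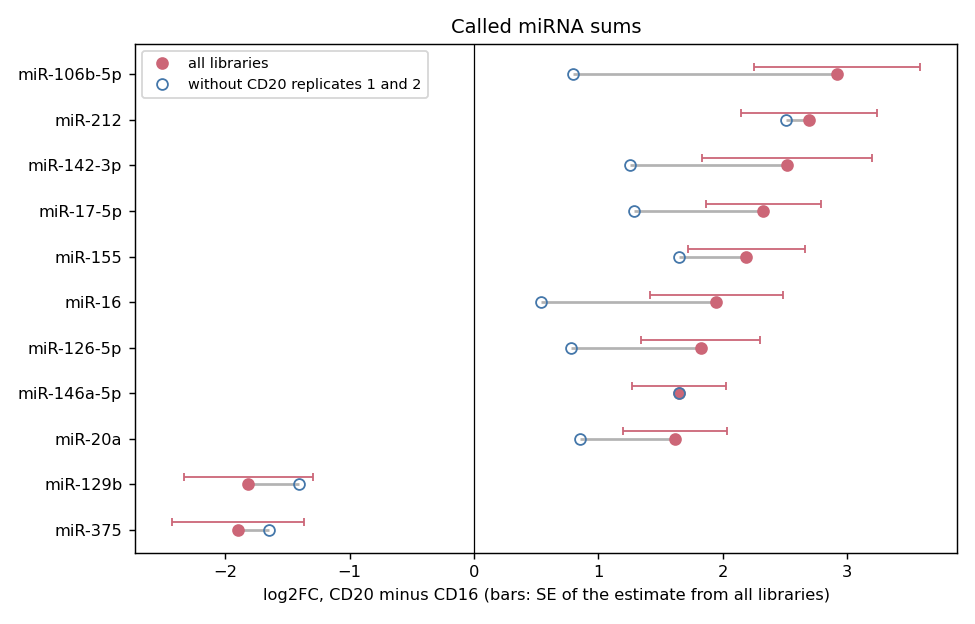
Estimated log2FC (CD20 minus CD16) of the 11 called miRNA sums from all libraries, with SE, and without CD20 replicates 1 and 2. All 11 keep their sign, miR-212 and miR-146a-5p move least and miR-106b-5p moves from 2.92 to 0.80.

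Of the 258 seed sums, 12 were called (4.65%), 9 higher (3.49%) and 3 lower (1.16%), or 22 with all deposited reads as library size, 21 higher and 1 lower. At an unadjusted p under 0.05 there were 59 (22.9%), 34 higher (13.2%) and 25 lower (9.69%), and 10 (3.88%) did not overlap between the days, 8 higher (3.1%) and 2 lower (0.775%). The seed AGCAGCA of miR-15b, miR-16, miR-195, miR-424 and miR-497 (14 sequences) had 283, 290.0, 297, 328 and 202 on CD16 and 2713, 954, 402, 375 and 532 on CD20 (log2FC 1.83, SE 0.52, adjusted p = 0.0426). The days did not overlap, and CD20 replicate 1 lay far above the rest. The seed of miR-150, a miRNA of lymphocytes, had 15.1 ± 6.15 and 42.4 ± 19.8 (log2FC 1.48, SE 0.43, adjusted p = 0.0426). Those of miR-345 (log2FC 2.70, SE 0.77, adjusted p = 0.0426) and miR-655 (log2FC 2.28, SE 0.64, adjusted p = 0.0426) were 1 sequence each with at most 13 reads in any CD16 library. The seeds of miR-155, miR-126-5p, miR-142-3p, miR-132 with miR-212 and the miR-17 family were the other 5 that were higher. Among the 3 that were lower, the seed of miR-361 was without overlap, at 20.0, 16.2, 17.6, 28.6 and 30.9 on CD16 and 6.14, 8.14, 11, 5.87 and 11.3 on CD20 (log2FC -1.40, SE 0.40, adjusted p = 0.0426). The others were the seeds of miR-375 (log2FC -1.94) and miR-129b (log2FC -1.83). The split of seed sums was 14 higher and 8 lower in the fit of all 30 libraries and 7 higher and 4 lower with a minimum mean of 10 CPM, and 21 higher and 1 lower with all deposited reads as library size. No seed sum was called without CD20 replicates 1 and 2 by the edgeR quasi-likelihood test (22 at an unadjusted p under 0.05). The log2FC was then 2.18 for the seed of miR-132 with miR-212, 1.72 for miR-155, 1.33 for miR-142-3p, 1.10 for miR-655, 0.99 for miR-150, 0.88 for the miR-17 family, 0.86 for miR-126-5p, 0.78 for miR-345 and 0.64 for miR-16 and its relatives. It was -1.69 for miR-375, -1.39 for miR-129b and -1.25 for miR-361. No seed sum was called in all 10 fits with 1 of the 10 libraries left out, and the highest number was 8, for miR-155.

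For orientation, the 4 CD12 libraries gave the levels of these sums before day 16. MiR-17-5p was at 24.4 ± 3.83 normalized reads on CD12, miR-212 at 1.66 ± 0.936, miR-155 at 6.00 ± 1.84 and miR-20a at 457 ± 135 (mean ± SD, n = 4). The CD12 means of miR-17-5p, miR-155 and miR-20a lay between those of CD16 and CD20, and that of miR-212 lay below both. For miR-106b-5p the CD12 level of 55.9 ± 20.7 also lay between, as did 164 ± 73.8 for miR-146a-5p, 234 ± 114 for miR-16 and 766 ± 125 for miR-375. The means of miR-126-5p, miR-142-3p and miR-129b did so too. None of the 11 sums reached an adjusted p under 0.05 between CD16 and CD12 in edgeR (lowest 0.192, for miR-106b-5p), a contrast that shares the CD16 libraries.

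MiR-140-3p, whose 5' isomiR is itself abundant in this tissue, was not called by the quasi-likelihood test. Other tools called it: for the canonical sequence the values were adjusted p = 0.0434 by the likelihood ratio test, 0.0397 by DESeq2 and 0.0492 in the fit of all 30 libraries, and for the sum of its forms, with a log2FC of -1.23 and a quasi-likelihood adjusted p = 0.0843, they were adjusted p = 0.045 by the likelihood ratio test, 0.0367 by DESeq2 and 0.0471 in the fit of all 30 libraries. The canonical sequence had 985, 595, 328, 321 and 1117 on CD16 and 50.5, 82.4, 213, 349 and 376 on CD20 (log2FC -1.64, SE 0.54, adjusted p = 0.0969). 3 CD20 libraries were below all CD16 libraries. The seed sum ACCACAG of the canonical 5' end had 4220.4, 2039, 1347, 1417 and 3951 and 513, 494, 973, 1450.3 and 1289.5 (log2FC -1.46, SE 0.44, adjusted p = 0.0502), and the seed sum CCACAGG of the end 1 base shorter had 3528 ± 1888 and 1585 ± 972 (log2FC -1.15, SE 0.47, adjusted p = 0.149). Of the 16 forms of miR-140-3p, 15 had a negative log2FC and 11 an unadjusted p under 0.05. Over all 119 miRNA sums with at least 3 forms, 59 had forms on both sides of 0.

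Among lists of miRNAs grouped by cluster, family or cell type, 3 of 31 held a called sequence. The list of miR-17, miR-92 and miR-106 clusters held 2 (31 sequences, 9 higher and 2 lower at an unadjusted p under 0.05, median 0.12), that of miR-132 and miR-212 held 1 (3 sequences, 3 higher and 0 lower at an unadjusted p under 0.05, median 2.11) and that of inflammation-linked miRNAs held 1 (12 sequences, 8 higher and 0 lower at an unadjusted p under 0.05, median 1.59). Beside these, all 873 sequences had 110 higher and 75 lower with a median log2FC of -0.03. The family of miR-15, miR-16 and miR-497 had a median of 1.41 over 15 sequences, 11 of them higher at an unadjusted p under 0.05 and 0 lower, and a median of 0.59 without CD20 replicates 1 and 2. MiR-29, which targets messages of the extracellular matrix, was found as miR-29a with a median of 1.43 over 4 forms, and its 21 nt form had 15.2, 19.7, 38.7, 30.0 and 21.7 and 92.3, 59.4, 63.2, 57 and 28.6 (adjusted p = 0.0994, and 0.0276 by DESeq2). All 12 forms of miR-101 were above 0 (median 0.65), as were all 14 sequences of the miR-34 and miR-449 family (median 0.59). The miR-23, miR-27 and miR-24 clusters had 32 sequences, 8 higher and 1 lower at an unadjusted p under 0.05, median 0.28, and the miR-424, miR-450 and miR-542 cluster 16 sequences, 4 higher and 0 lower at an unadjusted p under 0.05, median 0.60. Both of these medians were near 0 without CD20 replicates 1 and 2, at 0.06 and -0.02, and that of miR-191 with miR-425 went from 0.91 to 0.00208. On the same libraries the median was 0.30 for miR-101, 0.75 for miR-29a and -0.03 for the miR-17, miR-92 and miR-106 clusters. The last was also below 0 without CD20 replicate 1 alone (-0.052), and that of miR-101 was then 0.40, that of miR-191 with miR-425 0.59 and that of the miR-424, miR-450 and miR-542 cluster 0.36. Without CD20 replicate 2 the median of the miR-17, miR-92 and miR-106 clusters was 0.39, and without CD16 replicate 5 that of the miR-23, miR-27 and miR-24 clusters was 0.46.

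Several abundant families had medians below 0. Of 62 let-7 sequences, which are known for marking differentiated cells, 9 were above 0, with 1 higher and 11 lower at an unadjusted p under 0.05 (median -0.45). Let-7i with 3 added 3' bases had 14685, 16832, 29884, 24029 and 21425 on CD16 and 7707, 6986, 13983, 8878 and 11264 on CD20, all CD20 libraries lower, without a call by the quasi-likelihood test (log2FC -1.13, SE 0.36, adjusted p = 0.0969), but with one by DESeq2. The let-7i sum had a log2FC of -1.17 (quasi-likelihood adjusted p = 0.0622) and was called by the other tools (adjusted p = 0.0306 by the likelihood ratio test, 0.00741 by DESeq2 and 0.0153 in the fit of all 30 libraries). The medians were -0.41 for miR-99, miR-100 and miR-125 (43 sequences), -0.27 for miR-10 and miR-196 (37), -0.28 for miR-148 and miR-152 (26), -0.58 for miR-181 (11) and -0.45 for the miR-532 and miR-500 cluster (19). For miR-30 (53 sequences) the median was -0.06, for miR-221 and miR-222 (11) 0.22, for miR-199 and miR-214 (23) 0.30, and for the miRNAs of the imprinted DLK1-DIO3 region (41) -0.01. Some of these medians moved or changed sign. That of miR-181, with 1 library left out, ran from -0.73 without CD16 replicate 3 to -0.22 without CD16 replicate 5, and that of the miR-532 and miR-500 cluster from -0.66 without CD20 replicate 5 to -0.26 without CD16 replicate 3. The median of let-7 ran from -0.60 without CD20 replicate 5 to -0.28 without CD16 replicate 5, that of miR-221 and miR-222 from 0.059 without CD20 replicate 2 to 0.45 without CD16 replicate 5 and that of miR-199 and miR-214 from 0.28 without CD20 replicate 5 to 0.48 without CD20 replicate 4. For miR-10 and miR-196 it was -0.43 without CD20 replicate 3, for miR-148 and miR-152 -0.44 without CD20 replicate 5, for miR-30 -0.21 without CD16 replicate 2, and for the DLK1-DIO3 region it ran from -0.11 without CD16 replicate 2 to 0.24 without CD16 replicate 1. Leaving out CD20 replicates 1 and 2, the median was 0.17 for miR-148 and miR-152, 0.23 for the DLK1-DIO3 region and -0.24 for let-7. Without CD20 replicate 1 alone that of miR-148 and miR-152 was -0.0016. The median of miR-10 and miR-196 was 0.21 without CD16 replicate 3 and 0.077 with all deposited reads as library size, that of miR-30 was 0.072 without CD16 replicate 5 and 0.15 with all deposited reads, and that of the DLK1-DIO3 region was 0.22 with all deposited reads. MiR-21 was the most abundant sequence on both days, at 130402 ± 37524 and 143453 ± 60956 normalized reads (adjusted p = 0.865). MiR-210, the miRNA of the hypoxia response, was at 3.79 ± 2.58 and 1.41 ± 1.00, from 0 to 22 reads in a library (adjusted p = 0.222).

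**Figure D5:**
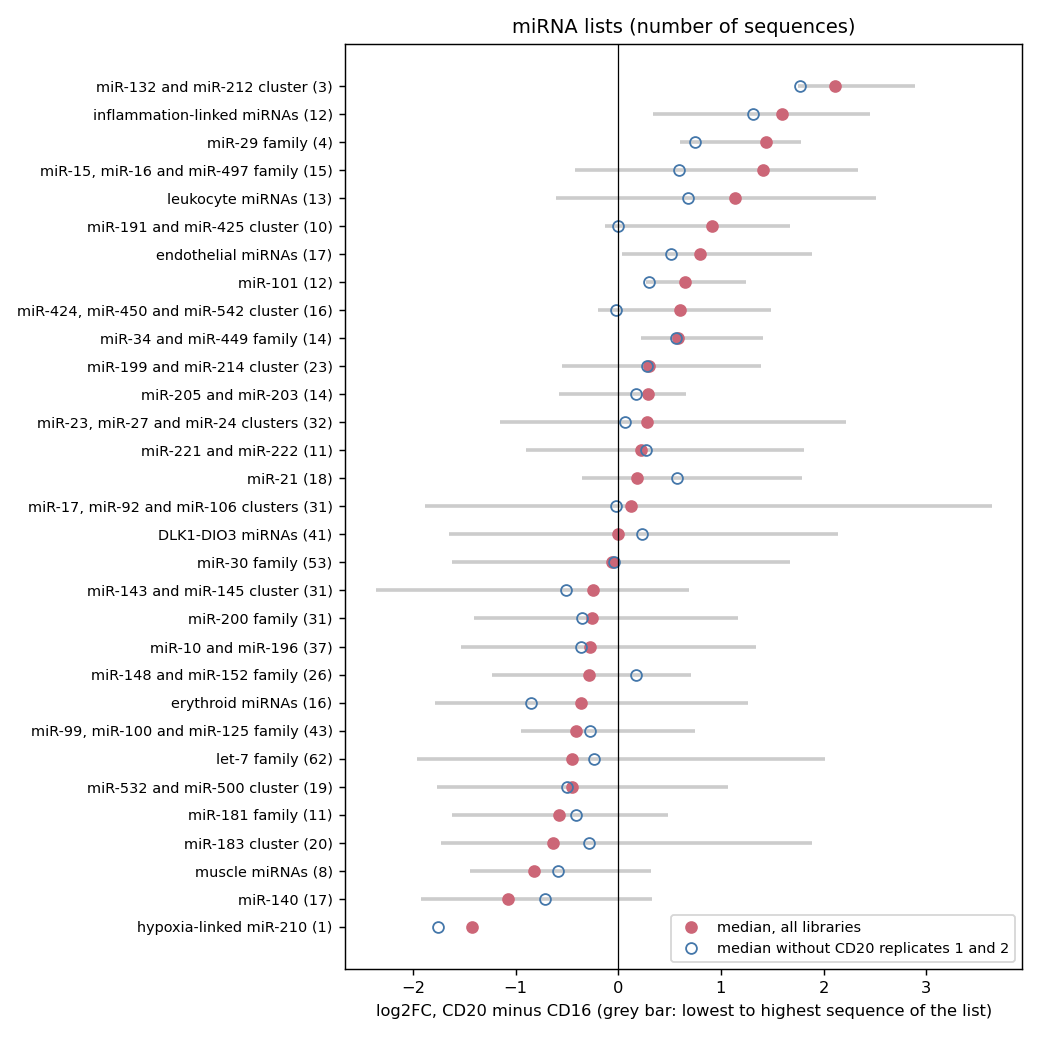
Median log2FC (CD20 minus CD16) of each miRNA list from all libraries and without CD20 replicates 1 and 2, with a grey bar from the lowest to the highest sequence and the number of sequences in parentheses. Medians run from -1.07 (miR-140) to 2.11 (miR-132 and miR-212) among lists of more than 1 sequence, and 16 of the 31 lists with sequences lie above 0.

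Lists of cell type markers described what the samples held. Epithelial miRNAs were abundant: the miR-200 family (5 of 5 names found) summed to 15578, 9459.8, 9113, 15706 and 15597 normalized reads on CD16 and 4465, 6279, 10156, 8364 and 7504 on CD20, led by miR-200c-3p, with 2 sequences higher and 4 lower at an unadjusted p under 0.05 (median -0.26). The miR-183 cluster (3 of 3), led by miR-182, summed to 12654, 5505, 2014.7, 5166 and 6301 and 5104, 2150.3, 3518, 4421 and 5164 (median -0.63), and miR-205 with miR-203 (2 of 2) to 586, 549.5, 509, 631 and 448 and 634, 794, 657, 519.8 and 681 (median 0.29). MiR-34c, a miRNA of ciliated epithelium, had 5331, 4531, 2717, 2593 and 2271 on CD16 and 7207, 3743, 5236, 10010.3 and 9929 on CD20 (adjusted p = 0.231), while miR-34b was not among the annotated names. MiR-143 and miR-145 of smooth muscle and stroma (2 of 2), led by miR-143-3p, summed to 121692, 148196, 122252, 59817 and 148251 and 129701, 100003, 76147, 88827 and 84479 (median -0.25). Of the muscle miRNAs 3 of 6 names were found, and their sum of 3834, 1956, 2943, 1908 and 17532 on CD16 and 2167, 1221, 1086, 8388 and 1930.2 on CD20 came mostly from miR-1, with CD16 replicate 5 and CD20 replicate 4 far above the rest. The median without CD20 replicates 1 and 2 was -0.35 for the miR-200 family, -0.28 for the miR-183 cluster, 0.17 for miR-205 with miR-203 and -0.51 for miR-143 with miR-145. With 1 library left out the median ran from -0.29 without CD20 replicate 5 to -0.052 without CD16 replicate 4 for the miR-200 family and from -0.79 without CD16 replicate 3 to -0.35 without CD16 replicate 1 for the miR-183 cluster. It ran from 0.18 without CD20 replicate 2 to 0.42 without CD16 replicate 4 for miR-205 with miR-203, and from -0.38 without CD16 replicate 4 to -0.14 without CD16 replicate 5 for miR-143 with miR-145. The median of the muscle miRNAs was -0.82, and 0.0058 without CD16 replicate 5. Of the embryonic miRNAs 0 of 9 names were found in the annotation. However, 1 sequence annotated only by Ensembl gene identifiers is the same as that of the miR-302 assay listed by the article. It had 0 reads in every CD16 library and normalized reads of 0.766 and 0.448 in CD20 replicates 1 and 5, at most 2 reads in a library, so no difference was detectable at this depth.

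Markers of blood cells and vessels moved in different ways beside the miRNAs that were higher. The leukocyte list (4 of 5 names, miR-223 not among the annotated names) summed to 162, 337, 287, 144 and 74.2 on CD16 and 432, 210.3, 204, 167 and 154 on CD20, with ranges that overlapped. Its sequences had 6 higher and 0 lower at an unadjusted p under 0.05 (median 1.13), but its most abundant sequence, miR-342 with 1 nt removed at the 3' end, had a log2FC of -0.61. The log2FC of that miR-342 form, with 1 library left out, ran from -1.02 without CD20 replicate 1 to -0.16 without CD16 replicate 2. MiR-155 is in both the leukocyte and the inflammation list. The erythroid list (3 of 3), led by miR-451, summed to 3459, 757, 1260.5, 1293 and 864 and 1802, 813, 726, 1569 and 307 (median -0.37), and miR-451 with 3 nt removed at the 3' end was lower in all CD20 libraries without a call (log2FC -1.79, SE 0.52, adjusted p = 0.0957), though the likelihood ratio test and DESeq2 made one. All 17 sequences of endothelial miR-126 were above 0, 7 at an unadjusted p under 0.05, and their sum was 4384, 3317, 3159.6, 3199 and 2394 on CD16 and 4888, 4014, 4480.2, 4739.7 and 4008 on CD20. The most abundant form of miR-126-3p did not pass (log2FC 0.26, SE 0.34, adjusted p = 0.676). The medians of the 3 lists without CD20 replicates 1 and 2 were 0.68, -0.85 and 0.51. The erythroid median, with 1 library left out, ran from -0.89 without CD20 replicate 1 to -0.094 without CD20 replicate 5. The part of these cells in the results above was not tested.

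A further 9 sequences were looked at because they belong to miRNAs that the article discusses, as a choice among the many it names, and none of these 9 was called. Canonical miR-1 had a log2FC of -0.68, miR-23b -1.03, miR-191 0.87, miR-34a 0.71, miR-342 -0.08, miR-143-3p -0.39, miR-182 -0.75, miR-205 -0.13 and miR-203-3p of 22 nt 0.28, with adjusted p-values from 0.249 to 0.946 (edgeR). These log2FC values change sign for miR-191, miR-342 and miR-205 under another scaling or choice of libraries. MiR-23b, with 1 library left out, ran from -1.28 without CD16 replicate 3 to -0.20 without CD16 replicate 5, and miR-1 from -0.85 without CD16 replicate 4 to -0.077 without CD16 replicate 5. MiR-143-3p ran from -0.54 without CD16 replicate 4 to -0.21 without CD16 replicate 5, miR-182 from -0.96 without CD16 replicate 3 to -0.36 without CD16 replicate 1 and miR-203-3p of 22 nt from 0.11 without CD20 replicate 2 to 0.42 without CD20 replicate 4. With 1 library left out, the smallest values of miR-191 and miR-34a were 0.49 and 0.40, both without CD20 replicate 1. Those not named above but without overlap between the days included miR-30b-5p with 1 nt removed at the 3' end (36.2, 38.4, 28.5, 36.5 and 28.8 on CD16, 172, 120.2, 55.1, 63.9 and 43.9 on CD20) and miR-143-3p with 2 nt added at the 3' end (30.7, 24.7, 50.4, 20.9 and 68.8 on CD16, 18.8, 14.2, 20.0, 6.92 and 14.3 on CD20). Neither was called by the quasi-likelihood test with all libraries. The likelihood ratio test and DESeq2 called the miR-30b-5p form and not the miR-143-3p form, and the miR-30b-5p sum had a log2FC of 1.33, 0.33 without CD20 replicates 1 and 2 (quasi-likelihood adjusted p = 0.0723 with all libraries; adjusted p = 0.0328 by the likelihood ratio test, 0.0413 by DESeq2 and 0.0153 in the fit of all 30 libraries).

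Sequence composition moved with the differences. Sequences of at most 35% G and C (93) had a median log2FC of 0.32 and those of over 55% (108) of -0.37, and the medians of the 4 bins between ran from 0.18 down to -0.15 in order. Without CD20 replicates 1 and 2 these medians were not in order. From the lowest to the highest GC they were 0.01, 0.22, 0.11, -0.06, -0.04 and -0.28. Across the 873 sequences Pearson's r of the log2FC with GC content was -0.19, and -0.16 without CD20 replicates 1 and 2, as a description over sequences that share libraries. The called sequences ran from 40.9% to 57.1% GC, and miR-212 was the richest. The part of GC content in the results was not tested. None of 12 measures of whole libraries differed between the days at an adjusted p under 0.05 in an exact two-sided permutation test, whose smallest possible p is 0.00794. Adjusted over 12 tests, 1 fully separated measure alone could reach no less than 0.0952, so this count says little. The measure with the smallest p was the share of annotated reads on miR-21 and its isomiRs, 26.4 ± 7.02% on CD16 and 34.4 ± 11.9% on CD20 (exact p = 0.246, adjusted p = 0.679, n = 5 each). Reads longer than canonical at the 3' end made up 23.2 ± 3.55% and 25.8 ± 5.35% of reads on canonical sequences and their isomiRs (exact p = 0.381, adjusted p = 0.679).

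To see where the step from day 16 to day 20 of the cycle differed from the same step in pregnancy, the difference of the 2 differences was tested in a fit of all 30 libraries. It was called for 21 of 873 sequences (2.41%), 13 with the larger signed log2FC in the cycle (1.49%) and 8 with the smaller (0.916%). At an unadjusted p under 0.05 there were 167 (19.1%). This contrast holds the same CD16 and CD20 libraries as the comparison above, so a call in both is no separate support. For miR-212 the normalized reads were 1.71 ± 1.42 on CD16, 14.5 ± 4.18 on CD20, 7.25 ± 3.89 on PD16 and 6.51 ± 1.71 on PD20 (difference 3.14, SE 0.78, adjusted p = 0.044 on the log2 scale). The largest number of fits with 1 library left out kept miR-16 with 1 nt added at the 3' end (17 of 21), which had 11.8 ± 4.55 on CD16, 62.6 ± 52.7 on CD20, 28 ± 5.91 on PD16 and 15.9 ± 5.18 on PD20 (difference 3.22, SE 0.66, adjusted p = 0.0233). Canonical miR-1 was among the 8, with 113 ± 81.2 on CD16, 76.2 ± 24.6 on CD20, 49.4 ± 12.4 on PD16 and 335 ± 583 on PD20 (difference -3.33, SE 0.89, adjusted p = 0.044), and its SD on PD20 was larger than its mean. The PD20 endometrium represents implantation sites, freed of embryos and trophoblast. Cyclic tissue has no such sites, so site and day cannot be told apart in pregnancy. With all deposited reads as library size 19 were larger in the cycle and 1 smaller. Without CD16 replicate 5, CD20 replicate 1, CD20 replicate 2 or PD16 replicate 5, 0 sequences were called by this edgeR test, with 123 to 156 at an unadjusted p under 0.05, while the likelihood ratio test with all libraries called 47.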

How the data were processed

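Per the labels, small RNA was extracted with a kit that keeps small RNA and libraries were made by ligation of adapters, amplified by PCR and pooled. The authors joined reads of repeated runs, removed reads of low quality, adapters, reads under 17 nt and reads with unknown bases, and deposited 1 table per library of raw counts of each distinct sequence, neither aligned nor normalized. Names of the 873 sequences were taken from the published annotation, which the authors made against miRBase and the pig genome, and columns of the authors' own fold changes and p-values were not used. The members and lists were chosen with earlier results of these data known.

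Counts were joined by exact match. Sequences of 1 base name that overlapped by at least 12 bases without mismatch were summed as 1 miRNA, and all sequences with the same bases 2 to 8 as 1 seed. With edgeR 4.0.16 (R 4.3.3), library size was the sum of annotated reads scaled by TMM, without a filter on low counts. The 14 cyclic libraries were fitted together with each day as a group, and CD20 minus CD16 was tested with the quasi-likelihood F-test, Benjamini-Hochberg adjustment and a prior count of 0.125. A feature was called where its log2FC was beyond 1 or -1 at an adjusted p under 0.05. The SE is the log2FC divided by the square root of F. In simulated counts of CD20 vs CD16 with 4-fold changes, the test recovered 79.7% of 200 changed sequences among 873, 86% of 60 changed miRNA sums among 241 and 87.5% of 64 changed seed sums among 258. Simulated counts were drawn independently for each feature, without a shift shared by many sequences as in CD20 replicates 1 and 2. They also held many true changes of 1 size, so the rates are not the power of this comparison. Principal components used log2(CPM + 1) where the mean over the 10 libraries reached 10 CPM. Alternatives were the likelihood ratio test, DESeq2 1.42.0, RLE scaling, all deposited reads as library size, a minimum mean of 10 CPM, a robust fit, other sets of libraries, blocks and each library left out. The blocks were the replicate number or runs of 12 library title numbers. The labels do not say what the title numbers stand for or which sequencing pool held each library. RefSeq gave gene order.

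Named features were every called one, up to 5 non-overlapping sequences per direction with a mean of at least 10 CPM and the largest log2FC, the most abundant sequence of each list, and 11 sequences chosen among the many miRNAs that the article names. Sequences that match several precursors or close relatives can share reads and are uncertain.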

Additional observations from a re-analysis of the deposited data

Results flagged for a closer look

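In 166 groups of 5 libraries, each for 1 named value on 1 day, 16 had 1 library far from the other 4 by Dixon's criterion. In 6 of these 16 the library was CD20 replicate 1. Chance flags about 1 in 20 groups of independent, normally distributed values. Many named values were chosen as called or without overlap in these libraries, and some contain others. That rate is therefore no measure of chance here. In CD20 replicate 1 the normalized reads were 228 for the 22 nt form and 348 for the sum of miR-106b-5p, 39.7 for the seed of miR-142-3p, 36.8 for that of miR-655, 2713 for that of miR-16 and its relatives and 19628 for miR-27b-3p. In CD16 replicate 5, miR-1 was high both as the form with 1 nt added at the 3' end (16586) and as the canonical sequence (266), and miR-203-3p of 22 nt was low (68.4). CD20 replicate 4 was high for miR-1 with 1 nt added (8084), CD20 replicate 3 for miR-99a with 1 nt removed at the 3' end (53675) and CD16 replicate 3 for miR-10b (231564). CD16 replicate 1 was high for miR-451 with 1 nt removed at the 3' end (2318) and for miR-127 with 2 nt removed (800.3). Canonical sequences held 64.5% of placed reads in CD16 replicate 3, and reads shortened at the 3' end 15.9% in CD20 replicate 3, both above the other libraries of their day. The causes were not tested.

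The step from day 16 to day 20 differed between the cycle and pregnancy for 21 sequences, by the test of the difference itself (log2 difference in parentheses). The steps are compared with their sign, so a smaller step can be a larger fall. The signed step was larger in the cycle for miR-16 3' ADD 1 nt (3.22), miR-495-3p form of 22 nt (2.97), miR-411 form of 21 nt (b) (1.94), miR-380 form of 21 nt (1.96), miR-106b-5p form of 22 nt (3.55), miR-212 form of 21 nt (3.14), miR-411 form of 21 nt (a) (1.88), miR-449a form of 22 nt (3.34), miR-186 (2.76), miR-16 3' DEL 1 nt (1.82), miR-27a (2.51), miR-374a-5p (2.54) and miR-17-5p (1.96). It was smaller for miR-451 3' DEL 3 nt (-2.97), miR-1468 (-2.22), miR-1 3' ADD 2 nt (-3.23), miR-1 (-3.33), miR-143-3p 3' ADD 2 nt (-2.77), miR-143-3p 5' ADD 1 nt 3' DEL 2 nt (-2.71), miR-143-5p 3' ADD 2 nt (-3.91) and miR-10b 3' DEL 1 nt (-1.67). Forms of 1 miRNA in these lists are not separate cases.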

How the results depend on the processing

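The counts of called sequences, miRNA sums and seed sums, 4, 11 and 12, were 56, 26 and 26 with the likelihood ratio test, 72, 28 and 23 with DESeq2, 8, 20 and 22 with all deposited reads as library size (median log2FC of all sequences 0.23, calls 19 higher and 1 lower for miRNA sums, 21 and 1 for seed sums) and 64, 24 and 22 in 1 fit of all 30 libraries. The 10 libraries alone gave 6 miRNA sums and 2 seed sums. With the replicate number as a block all 3 counts were 0 in edgeR, with 153, 44 and 48 at an unadjusted p under 0.05. Same-numbered CD16 and CD20 libraries did not deviate together (correlations -0.15, -0.02, -0.05, -0.42, 0.37), so the numbers were not taken as pairs. Runs of 12 title numbers as blocks gave 2 seed sums. Among all 20351 deposited sequences with at least 10 reads 0 were called, with 1355 at an unadjusted p under 0.05. Without CD20 replicates 1 and 2, an alternative chosen after seeing the data, the counts were 0, 0 and 0, with 65, 15 and 22 at an unadjusted p under 0.05. With 1 library left out they ran from 0 to 36, from 4 to 30 and from 0 to 21. Counts moved by over 1.5 times for sequences without CD16 replicate 1 (0), CD16 replicate 2 (0), CD16 replicate 3 (2), CD16 replicate 4 (2), CD16 replicate 5 (0), CD20 replicate 1 (2), CD20 replicate 2 (0), CD20 replicate 3 (36), CD20 replicate 4 (19), CD20 replicate 5 (11), for miRNA sums without CD16 replicate 2 (7), CD16 replicate 3 (30), CD16 replicate 4 (6), CD16 replicate 5 (5), CD20 replicate 1 (4), CD20 replicate 2 (5), CD20 replicate 3 (21), CD20 replicate 5 (21), and for seed sums without CD12 replicate 4 (2), CD16 replicate 1 (2), CD16 replicate 2 (0), CD16 replicate 3 (21), CD16 replicate 4 (2), CD16 replicate 5 (0), CD20 replicate 1 (2), CD20 replicate 2 (1). The difference between the cycle and pregnancy was called for 21 sequences, 47 with the likelihood ratio test, and 0 to 34 with 1 library left out (over 1.5 times from 21 without PD16 replicate 1 (1), PD16 replicate 2 (6), PD16 replicate 3 (4), PD16 replicate 4 (5), PD16 replicate 5 (0), PD20 replicate 1 (2), PD20 replicate 3 (12), PD20 replicate 4 (34), PD20 replicate 5 (1), CD16 replicate 1 (8), CD16 replicate 2 (1), CD16 replicate 5 (0), CD20 replicate 1 (0), CD20 replicate 2 (0), CD20 replicate 3 (32)). RLE scaling and the robust fit kept all 3 counts within 1.5 times, and no other alternative ended the calls. Lists with a median above 0 were 16, from 16 to 19.

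Of the named values under their alternatives, 1500 kept their sign and their side of the threshold, 245 lost a call, 30 gained one and 38 changed sign. Those that changed sign without CD20 replicates 1 and 2 were let-7f (0.012), miR-27b-3p (-0.81), miR-148a-3p (0.20), miR-199b-5p 3' ADD 1 nt (0.060), miR-191 (-0.034) and its form 3' DEL 1 nt (-0.041), miR-127 3' DEL 2 nt (0.54) and miR-205 (0.087). With all deposited reads they were miR-30a-5p 3' ADD 2 nt (0.070), miR-450b-5p 3' DEL 1 nt (0.10), miR-127 3' DEL 2 nt (0.17), miR-205 (0.14) and miR-342 (0.24). With all 30 libraries and with all deposited sequences they were miR-127 3' DEL 2 nt (0.073 and 0.033) and miR-342 (0.0042 and 0.018). With the replicate block they were miR-27b-3p (-0.017) and miR-205 (0.19), and with the title number block miR-205 (0.15). With 1 library left out the log2FC ran from -1.94 to 0.26 for miR-1 3' ADD 1 nt, -0.34 to 0.0095 for miR-30a-5p 3' ADD 2 nt, -0.59 to 0.48 for miR-27b-3p, -0.68 to 0.14 for miR-10b, -0.49 to 0.29 for miR-127 3' DEL 2 nt, -0.043 to 0.37 for miR-21, -0.41 to 0.34 for miR-205 and -0.43 to 0.16 for miR-342. The causes were not tested. Differences of sequences with few reads, such as miR-345, miR-655 and miR-210, are limited by depth.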
